A study of Xenopus laevis with 30 samples.

Results

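The genes *otx1* and *otx2* encode homeodomain transcription factors of the orthodenticle family, and in *Xenopus laevis*, whose genome is allotetraploid, each is present as a .L and a .S copy (from the long and short homeologous chromosomes). The 4 copies *otx1.L* (NCBI gene 394326), *otx1.S* (108717621), *otx2.L* (432013) and *otx2.S* (399342) were taken by name from a table of 49109 genes, and all 4 passed the filter on low counts in each of the 4 sets of libraries compared here. In vertebrate embryos *otx2* is required for the formation of forebrain and midbrain, and its posterior limit meets the anterior limit of *gbx2* at the midbrain-hindbrain boundary, the site of the isthmic organizer, where *en1*, *en2*, *pax2*, *fgf8* and *wnt1* are also expressed. *otx1* overlaps with *otx2* in the anterior brain and is known from the mouse for its roles in cortex, midbrain and cerebellum. Outside the brain wall, *otx2* is known from the retina, the retinal pigment epithelium, the pineal gland and the choroid plexus.

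RNA was sequenced from tissue of *X. laevis* tadpoles at stages of Nieuwkoop and Faber (NF), with no treatment in any group. By the study's methods the animals were albino tadpoles of both sexes, though those methods name only NF 44, 46, 55 and 61 as sampled, not NF 49 or 66. At NF 46, forebrain, midbrain, hindbrain and spinal cord were sampled with 3 libraries each, and at NF 49 the same 4 regions with 2 libraries each. Midbrain was also sampled at NF 44, 55 and 61 with 3 libraries per stage and at NF 66 with 1 library, which makes 30 libraries in all. By the study's methods the NF 46 forebrain was its subcortical portion, the hindbrain kept the rhombic lip, and replicates were biological. Each library is a bulk sample of a dissected region, so fewer cells that express a gene and less RNA per cell cannot be told apart.

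Totals ran from 1762544 to 11016124 counts per library, with levels given below as CPM, the count scaled to a common library size, after TMM scaling over all 30 libraries. A set of 10 libraries stood apart from the other 20, namely replicate 3 of forebrain, hindbrain and spinal cord at NF 46, all forebrain, hindbrain and spinal cord libraries of NF 49, and replicate 2 of the NF 49 midbrain. In these 10, between 0.541% and 1.87% of counts fell on 7289 genes that had at most 2 counts over 12 midbrain libraries of NF 44, 46, 55 and 61 (called silent genes below), against 0.0019% to 0.102% in the other 20. The 12 midbrain libraries that define these genes are among the 20, so their low shares follow from the definition. The rest of the 20 had 0.0111% to 0.102%. Genes used only outside the midbrain can be among the silent genes, and the highest share of the 20 was in a spinal cord library. The 10 libraries had 1762544 to 4937973 counts with 45627 to 47374 genes detected, and the other 20 had 6357375 to 11016124 counts with 31207 to 39496 genes detected. The level that 99% of the silent genes stayed at or under was 3.14 to 7.27 CPM in the 10 libraries and 0.107 to 1.09 CPM in the 20. It was 0.379 to 1.09 CPM in those of the 20 that do not define the silent genes. Several otx values at or below that level come from the 10 libraries, so results that include them are given with and without them where they change.

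Regional identity was checked with marker lists. At NF 46 the summed level of 7 forebrain marker rows (*emx1*, *emx2*, *six3* and *dlx5* copies) was 187 to 309 CPM in forebrain, 113 to 122 CPM in midbrain and 0.53 to 19.6 CPM in hindbrain and spinal cord. Among these rows, the *emx1* and *dlx5* copies were higher in each forebrain library than in any midbrain library. *six3.L* went the other way, at 24.03 to 31.07 CPM in forebrain and 34.7 to 50.02 CPM in midbrain. For *emx2.L* and *six3.S* the forebrain and midbrain libraries overlapped. The 7 spinal cord hox rows summed to 160 to 300.2 CPM in spinal cord and to at most 14.4 CPM elsewhere. The 8 rows of the hindbrain list summed to 134 to 196 CPM in hindbrain and to 203 to 377 CPM in spinal cord. They were at 37.8 to 47.1 CPM in midbrain and 32.2 to 57.5 CPM in forebrain, so this list did not single out hindbrain. The 9 midbrain rows (*en1*, *en2*, *dmbx1*, *pax7* and *tfap2d* copies) summed to 341 to 355 CPM in midbrain, 195 to 318 CPM in hindbrain, 56.4 to 79.0 CPM in spinal cord and 1.6 to 45.0 CPM in forebrain. The members of that list differed: *dmbx1.S* measured 42.8 to 71.3 CPM in hindbrain and 18.7 to 24.9 CPM in midbrain, while *tfap2d.L* measured 1.9 to 4.6 CPM in hindbrain and 73.8 to 94.3 CPM in midbrain. Both *pax7* copies were lower in each hindbrain library than in any midbrain library. Whether midbrain tissue in the hindbrain samples had a part in their otx levels was not tested. The part of forebrain tissue in the otx levels of the midbrain samples was not tested either.

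At NF 46, *otx1.L*, *otx2.L* and *otx2.S* were higher in each midbrain library than in any library of the other regions, and both *otx2* copies were higher in each forebrain library than in any of hindbrain and spinal cord. *otx1.S* did not separate the regions when all libraries were kept. *otx2.L* showed the clearest steps: its mean was 101 ± 4.76 CPM (SD, n = 3) in midbrain, 29.4 ± 7.24 CPM (SD, n = 3) in forebrain, 7.69 ± 3.13 CPM (SD, n = 3) in hindbrain and 1.61 ± 1.39 CPM (SD, n = 3) in spinal cord. A copy was called different between 2 regions at an edgeR adjusted p below 0.05 with a log2 fold change above 2 in size, and 5 of the 24 tests (4 copies in 6 pairs of regions) were called. These were *otx2.L* in 4 pairs and *otx1.L* in 1 pair.

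By library, *otx2.L* measured 107, 97.1 and 101 CPM in midbrain, 29.3, 36.6 and 22.1 CPM in forebrain, 6.36, 11.3 and 5.43 CPM in hindbrain, and 1.25, 0.445 and 3.14 CPM in spinal cord. The 4 regions did not overlap in any pair. Spinal cord was lower than midbrain by 6.01 on the log2 scale (standard error 0.44, edgeR adjusted p = 1.04e-07), where 3.84% of the 34485 genes tested were called. The value against forebrain was -4.31 (standard error 0.43, adjusted p = 2.16e-06), with 3.36% of all genes called, and against hindbrain it was -2.40 (standard error 0.45, adjusted p = 0.0035), with 1.07% called. The call of spinal cord against hindbrain was lost when only those 2 regions were fitted (-2.18, adjusted p = 0.156). Hindbrain against midbrain was at -3.62 (standard error 0.36, adjusted p = 2.86e-05), in a comparison with 0.821% of genes called.

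The remaining steps of *otx2.L* passed the adjusted p but not the fold. Midbrain was above forebrain by 1.70 on the log2 scale (standard error 0.33, adjusted p = 0.00673), and 2.5% of all genes passed the adjusted p alone while 0.916% were called. Hindbrain against forebrain gave -1.92 (standard error 0.35, adjusted p = 0.00288), with 3.55% of genes past the adjusted p and 1.28% called. The order midbrain, forebrain, hindbrain, spinal cord therefore had a difference past the adjusted p between each pair of neighbours for this copy.

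*otx1.L* had the same order of means with less separation. It measured 26.0, 26.1 and 23.6 CPM in midbrain, 9.36, 12.3 and 5.42 CPM in forebrain, 5.83, 3.71 and 3.54 CPM in hindbrain and 0, 0.593 and 4.04 CPM in spinal cord. Midbrain lay above all other libraries, forebrain and hindbrain overlapped, and so did hindbrain and spinal cord. Spinal cord was called lower than midbrain, at -4.04 (standard error 0.81, adjusted p = 0.00574). For spinal cord against forebrain the value was -2.63 (standard error 0.80, adjusted p = 0.0577), and for hindbrain against midbrain -2.45 (standard error 0.72, adjusted p = 0.154).

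*otx2.S* separated into an anterior and a posterior pair of regions. It measured 28.9, 29.6 and 31.5 CPM in midbrain and 16.6, 13.1 and 14.8 CPM in forebrain, against 0.354, 0 and 3.78 CPM in hindbrain and 0, 0.296 and 4.27 CPM in spinal cord. Each midbrain and forebrain library was above each hindbrain and spinal cord library. In spite of fold changes between -3.44 and -4.53 in the 4 comparisons of an anterior with a posterior region, none was called in the fit of all 12 libraries, and their adjusted p values lay between 0.0591 and 0.273 (*otx2.S* hindbrain against forebrain -3.62, standard error 1.29). Other fits did call them. The silent-gene share is low in midbrain by definition and can be raised by genes used in spinal cord. As a covariate it is thus partly tied to region, and a fit with it cannot fully separate background from region. With the silent-gene share as a covariate, chosen after seeing the data, all 4 were called (adjusted p of 0.00776 to 0.0294), where 1.84% of genes were called for forebrain against hindbrain, 4.54% for forebrain against spinal cord, 1.58% for midbrain against hindbrain and 5.16% for midbrain against spinal cord. With all 30 libraries in 1 fit all 4 were called as well (adjusted p of 0.000507 to 0.00906), and the shares of genes in the same order were 1.19%, 2.89%, 0.94% and 3.86%.

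*otx1.S* was the lowest in counts and the most variable copy. It measured 5.44, 7.71 and 4.43 CPM in midbrain, 1.39, 1.52 and 6.60 CPM in forebrain, 0, 0 and 4.96 CPM in hindbrain and 0, 0.889 and 5.39 CPM in spinal cord. The highest value in forebrain, hindbrain and spinal cord came in each case from replicate 3, 1 of the 10 libraries with many counts on silent genes, and midbrain did not stand clear of those 3 libraries. None of its 6 tests passed in the fit of all 12 libraries, with edgeR adjusted p values of 0.609 or more. With the silent-gene share as a covariate, which is partly tied to region, 3 were called. These were midbrain against forebrain (3.41, adjusted p = 0.028), hindbrain against midbrain (-6.06, adjusted p = 0.00387) and spinal cord against midbrain (-5.69, adjusted p = 0.00171). For the last 2, 1.58% and 5.16% of all genes were called, and for the first the share is not given here.

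**Figure D1:**
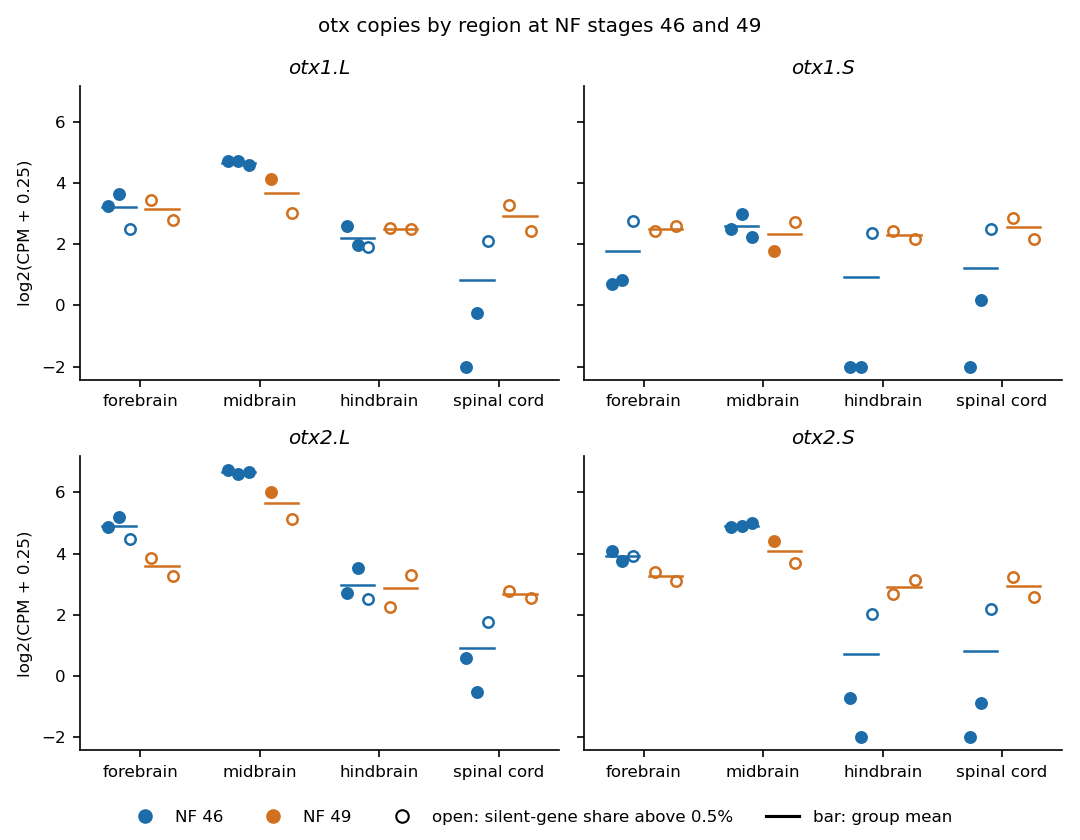
Level of each otx copy in each library of the 4 regions at NF 46 (blue) and NF 49 (orange), as log2(CPM + 0.25), with a bar at the log2 of the group mean plus 0.25. Open points are the libraries with over 0.5% of counts on silent genes, and in hindbrain and spinal cord at NF 46 the open point is the highest value of both .S copies.

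Without the 3 replicate 3 libraries of forebrain, hindbrain and spinal cord, 15 of the 24 tests were called instead of 5, in a fit of 27407 genes. All 5 earlier calls were among them, and 7 of the 10 added calls were of .S copies in comparisons with hindbrain or spinal cord at a size of 3.67 or more. The share of all genes called rose as well, to 2.36% for forebrain against midbrain, 3.85% for forebrain against hindbrain, 7.95% for forebrain against spinal cord, 2.45% for midbrain against hindbrain, 7.55% for midbrain against spinal cord and 3.67% for hindbrain against spinal cord. For *otx2.S*, hindbrain against midbrain was then at -7.49 on the log2 scale (standard error 0.64, adjusted p = 6.85e-08) and spinal cord at -7.48 (standard error 0.63, adjusted p = 1.61e-08). For *otx1.L*, spinal cord against midbrain was at -6.31 (standard error 0.59, adjusted p = 7.58e-08), and hindbrain at -2.39 (standard error 0.41, adjusted p = 0.000552).

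In the remaining 9 libraries the .S copies were at or near 0 in hindbrain and spinal cord. The 2 hindbrain libraries together held 0 counts of *otx1.S*, which allows up to 0.218 CPM (3 counts over both), so the midbrain mean of 5.86 CPM was at least 26.8-fold higher. They held 2 counts of *otx2.S* and 127 counts of *otx2.L*. Against those 2 counts, midbrain was 206-fold higher for *otx2.S* (exact Poisson 95% interval of the 2 counts 57.0 to 1701.1), so the fitted values above are no bound. The mean of *otx2.S* was 29.99 CPM in midbrain and 0.177 CPM in these hindbrain libraries, and that of *otx2.L* was 101 and 8.81 CPM, which is 11.5-fold. In the 2 spinal cord libraries, the counts were 0 and 4 of *otx1.L*, 0 and 6 of *otx1.S*, 8 and 3 of *otx2.L* and 0 and 2 of *otx2.S*.

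**Figure D2:**
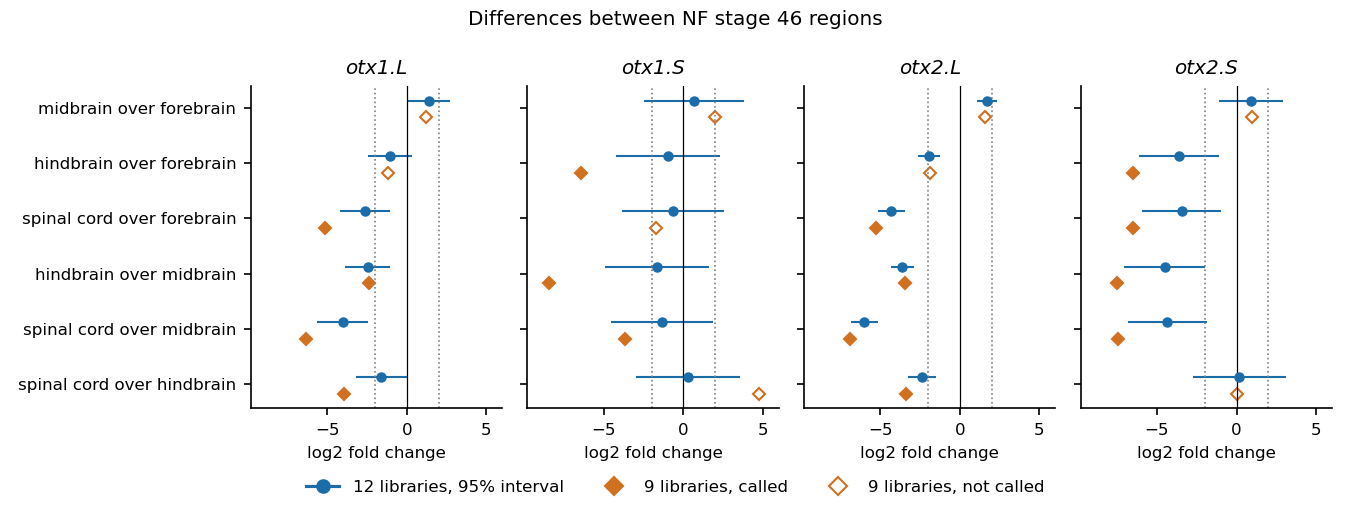
Log2 fold change between each pair of NF 46 regions for the 4 copies, with the second region named as the reference, from all 12 libraries (blue, approximate 95% interval) and from the 9 libraries without replicate 3 of forebrain, hindbrain and spinal cord (orange, filled where called). Dotted lines mark the threshold of 2 in size on the log2 fold change. The intervals of the .S copies were the widest with 12 libraries, and the fitted values for *otx1.S* against hindbrain rest on 0 counts there and are no bound.

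The balance of the copies is best seen as the share of the .L copy in the counts of .L plus .S. How reads that match both copies were handled by the counting is not given in the sources used here, so the split itself is uncertain and only its change between groups is described. In the 3 NF 46 midbrain libraries the .L share of *otx1* was 82.7%, 77.2% and 84.2%, and that of *otx2* was 78.7%, 76.7% and 76.2%. In hindbrain replicates 1 and 2, all 33 and all 30 counts of *otx1* were on .L (exact 95% interval from 89.4% and from 88.4%). For *otx2* there, 36 of 38 counts were on .L (94.7%, exact interval 82.3% to 99.4%) and 91 of 91 (exact interval from 96.0%). In forebrain replicates 1 and 2, *otx2* had .L shares of 63.8% and 73.6%, and the interval of replicate 1, 57.7% to 69.6%, lay below those of the 3 midbrain libraries. These intervals cover counting error only.

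Across all libraries with at least 20 counts, the .L share moved with the share of counts on silent genes. In the 10 libraries above 0.5%, the .L share of *otx1* was 41.7% to 67.3% (median 54.1%), and in the other 18 it was 61.0% to 100% (median 83.9%). For *otx2* the ranges were 42.3% to 73.1% (median 53.2%) and 63.8% to 100% (median 77.1%). In hindbrain replicate 3 the .L share was 41.7% for *otx1* and 59.0% for *otx2*, against 94.7% or more in the other 2 replicates. The NF 49 midbrain shows the same within 1 group, as *otx1* had an .L share of 84.4% in replicate 1 and 55.4% in replicate 2, the library with many counts on silent genes, while *otx2* had 75.6% and 73.1%. The part of background reads in these shares was not tested.

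**Figure D3:**
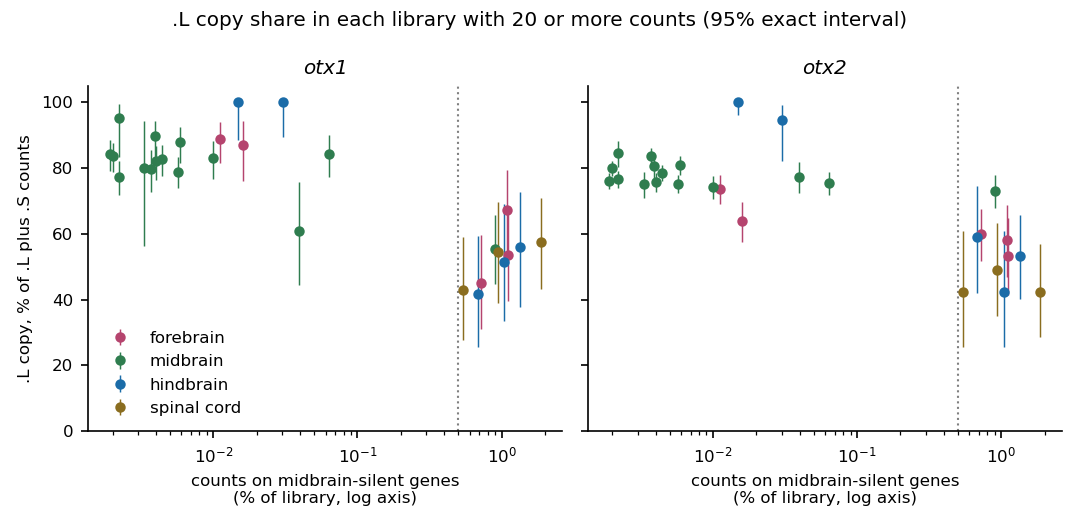
Share of the .L copy in the counts of *otx1* (left) and *otx2* (right) in each library with at least 20 such counts, with the exact 95% interval, against the percentage of the library's counts on silent genes (log axis), coloured by region. To the right of the dotted line at 0.5%, all shares of *otx1* are at or under 67.3%, and to its left all but the NF 66 midbrain at 61.0% are above 77%.

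No test of a share passed after adjustment over the 6 share tests. Between the NF 46 regions, exact permutation tests over the 9 libraries of forebrain, midbrain and hindbrain gave p = 0.943 for the .L share of *otx1* (adjusted p = 0.943) and p = 0.246 for that of *otx2* (adjusted p = 0.493). Spinal cord had too few counts to enter. The share of *otx2* in the counts of all 4 copies was 81.2%, 78.9% and 82.5% in midbrain, 81.0%, 78.3% and 75.5% in forebrain, and 53.5%, 75.2% and 52.0% in hindbrain, with an exact permutation p of 0.0107 (adjusted p = 0.0643). Every hindbrain library was below every midbrain and forebrain library, the nearest being 75.2% in hindbrain and 75.5% in forebrain. Without the 3 libraries, the exact permutation test of the .L share of *otx2* gave an adjusted p of 0.0321. The other share tests in that adjustment still used all their libraries, and the adjusted value depends on them too.

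The level of otx was set beside markers of other otx-expressing tissues that a dissection can hold. The 6 pineal rows (*aanat*, *tph1*, *asmt* and *opn4* copies) summed to 64.1 to 88.8 CPM in NF 46 midbrain, 9.9 to 35.8 CPM in forebrain, 2.8 to 35.2 CPM in hindbrain and 4.5 to 23.4 CPM in spinal cord, and so were highest where otx was. The 11 retina and photoreceptor rows summed to 27.9 to 50.9 CPM in midbrain, with 8 or 9 of 11 detected, and to 3.8 to 54.4 CPM in forebrain, 3.3 to 44.7 CPM in hindbrain and 4.4 to 39.7 CPM in spinal cord. In each of these regions the highest sum came from replicate 3, and without it the retina rows were at 3.8 to 16.3, 3.3 to 3.7 and 4.4 to 8.1 CPM and the pineal rows at 9.9 to 14.3, 2.83 to 2.85 and 4.5 to 5.6 CPM, all below midbrain. The 12 rows of the retinal pigment epithelium were highest in forebrain, at 188 to 224 CPM, against 141 to 188 CPM in midbrain. They summed to 125 to 136 CPM in spinal cord and 74.9 to 86.5 CPM in hindbrain. The 12 choroid plexus rows were lowest in midbrain, at 57.5 to 70.8 CPM, and highest in spinal cord, at 313 to 717 CPM, where otx was low. Without *aqp1.L*, midbrain (27.7 to 28.9 CPM) lay within the range of hindbrain (27.2 to 60.7 CPM), and spinal cord was at 84.3 to 112 CPM. The part of pineal, retinal or choroid plexus cells in the otx levels was not tested.

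Other genes that pattern the anterior brain were followed through a list of 51 rows, of which 47 were tested at NF 46. Of these, 13 were called between forebrain and midbrain (9 higher in midbrain, 4 lower), 18 between forebrain and hindbrain (14 higher in hindbrain), 17 between forebrain and spinal cord (7 higher in spinal cord), 5 between midbrain and hindbrain (1 higher in hindbrain), 15 between midbrain and spinal cord (1 higher in spinal cord) and 10 between hindbrain and spinal cord, all lower in spinal cord. Over all genes the shares called in the same order were 0.916%, 1.28%, 3.36%, 0.821%, 3.84% and 1.07%. The median log2 fold change of spinal cord against midbrain was -2.13 over the list and 0.26 over all genes tested. *barhl2.L* and *barhl2.S*, BarH-like homeobox genes, were called lower in hindbrain than in midbrain, by 2.8 and 2.4 on the log2 scale. They were called lower in spinal cord by 6.8 and 5.4. Of the otx copies only *otx2.L* was called in both of these comparisons.

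Some partners had higher means in hindbrain than in midbrain, and others fell from midbrain to hindbrain as otx did. Of the first kind only *pax8.L* was called. *gbx2.2.L*, a row of the gene that borders otx at the isthmus, had 17.1 CPM in hindbrain, 7.9 CPM in midbrain, 4.97 CPM in spinal cord and 2.7 CPM in forebrain as means, and the rise from forebrain to hindbrain was called at 2.6. The other such row, *gbx2.1.L*, varied less, with means of 19.8, 12.3, 12.7 and 8.4 CPM in the same order. It was called in no pair, and its hindbrain and midbrain libraries overlapped. *en1.L* and *en1.S*, engrailed genes of the boundary region, had means of 45.8 and 38.4 CPM in hindbrain and 20.5 and 13.8 CPM in midbrain, with 15.4 and 24.997 CPM in spinal cord and 0.9 and 1.4 CPM in forebrain. The hindbrain and midbrain libraries overlapped for *gbx2.2.L* and *en1.L*. *en2.S* had means of 26.5 CPM in hindbrain and 25.7 CPM in midbrain. *pax8.L* was called higher in hindbrain than in midbrain, at 34.5 against 0.037 CPM. *six6.L* and *six3.L*, genes of the anterior neural plate and eye field, were called lower in hindbrain than in midbrain, with means of 0.6 against 26.1 CPM and 1.4 against 42.7 CPM.

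Over midbrain development the 4 copies fell from NF 44 and 46 to NF 61, and the copies differed in size of change. *otx2.L* and *otx2.S* had about the same level at NF 44 and 46 and were lower at NF 55 and at NF 61, with no step from NF 55 to 61 that passed, while *otx1.S* had the greatest fold change of the 4. Of 24 tests (4 copies in 6 pairs of stages, 26681 genes tested), 13 passed the adjusted p and 2 were also past the fold threshold, both of *otx1.S*. With all 30 libraries in 1 fit, 10 of the 13 no longer passed (adjusted p of 0.0747 to 0.617), and those that did were *otx2.L* at NF 61 against NF 44 and 46 and *otx1.L* at NF 61 against NF 44.

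*otx2.L* measured 104, 116 and 94.5 CPM at NF 44, 107, 97.1 and 101 CPM at NF 46, 83.7, 49.3 and 70.3 CPM at NF 55, and 46.9, 49.8 and 55.0 CPM at NF 61. All NF 55 and NF 61 libraries lay below all NF 44 and NF 46 libraries. On the log2 scale *otx2.L* changed by -0.61 from NF 44 to 55 (standard error 0.17, edgeR adjusted p = 0.0153), where 16.7% of all genes passed the adjusted p and 2.61% were called. It was -0.58 from NF 46 to 55 (adjusted p = 0.0214), with 16.6% of genes past the adjusted p and 2.29% called. To NF 61 it was -1.02 from NF 44 (standard error 0.17, adjusted p = 7.69e-05), where 36.3% passed and 7.91% were called, and -0.98 from NF 46 (adjusted p = 0.000106), where 37.9% passed and 7.83% were called. The change to NF 55 was no longer past the adjusted p without replicate 2 of NF 55, at -0.41 from NF 44 (adjusted p = 0.0819) and -0.38 from NF 46 (adjusted p = 0.11), nor in single cases without replicate 2 of NF 44 (-0.53 from NF 44) and replicates 1 or 3 of NF 46 (-0.55 and -0.58 from NF 46).

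*otx2.S* followed *otx2.L*. It measured 33.3, 29.1 and 31.1 CPM at NF 44, 28.9, 29.6 and 31.5 CPM at NF 46, 16.2, 17.2 and 16.7 CPM at NF 55 and 15.6, 9.10 and 13.2 CPM at NF 61. The change of *otx2.S* was -0.88 to NF 55 from NF 44 (standard error 0.20, adjusted p = 0.00512), -0.84 from NF 46, and -1.26 to NF 61 from NF 44 (standard error 0.21, adjusted p = 7.41e-05). From NF 55 to 61 the 2 groups did not overlap, but the log2 fold change of -0.38 did not pass (adjusted p = 0.23). For *otx2.L* the same step gave -0.41 (adjusted p = 0.0998).

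*otx1.L* stood at 32.1, 25.7 and 29.3 CPM at NF 44, 26.0, 26.1 and 23.6 CPM at NF 46 and 16.9, 15.5 and 15.8 CPM at NF 55. At NF 61 its 3 libraries were far apart, with 2.06, 6.45 and 15.5 CPM (16, 39 and 113 counts), so that replicate 3 was at the level of NF 55. *otx1.L* changed to NF 61 by -1.82 from NF 44 (standard error 0.40, adjusted p = 0.0017) and -1.64 from NF 46 (standard error 0.40, adjusted p = 0.00357), past the adjusted p and short of the fold. Its values at NF 55 did not overlap with those at NF 44 or 46, but neither test passed (adjusted p = 0.145 and 0.265).

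*otx1.S* measured 7.02, 5.04 and 7.81 CPM at NF 44, 5.44, 7.71 and 4.43 CPM at NF 46, 4.33, 3.16 and 2.19 CPM at NF 55 and 0.514, 0.331 and 1.79 CPM at NF 61 (4, 2 and 13 counts). NF 61 lay below every library of the earlier stages. The value was -2.84 on the log2 scale from NF 44 to 61 (standard error 0.54, adjusted p = 0.000318) and -2.68 from NF 46 to 61 (standard error 0.54, adjusted p = 0.000531), and both were called. When all 30 libraries were fitted together, neither was (-2.88, adjusted p = 0.115, and -2.70, adjusted p = 0.139), and 0 of the 24 tests between stages were called. From NF 55 to 61 *otx1.S* changed by -1.82 (standard error 0.55, adjusted p = 0.0227), in a comparison where 19.2% of genes passed the adjusted p and 3.33% were called. It no longer passed without NF 55 replicate 1 (-1.55, adjusted p = 0.0859), without replicate 1 or 2 of NF 61 (-1.53 and -1.49), when only NF 55 and 61 were fitted (adjusted p = 0.123) or with all 30 libraries in 1 fit (adjusted p = 0.523). Replicate 3 of NF 61 was the highest of its group for both *otx1* copies. Without it 5 tests were called in place of 2, the added ones being *otx1.L* at -2.78 from NF 44 and -2.60 from NF 46, and *otx1.S* at -2.85 from NF 55. In that fit 8.14% of 27802 genes were called from NF 44, 7.96% from NF 46 and 3.37% from NF 55.

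Between NF 44 and 46 no copy was called and none reached an unadjusted p of 0.05, in edgeR or in DESeq2. The 4 log2 fold changes lay between -0.18 and -0.03. Among all genes 1 was called, which is 0.00375%.

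**Figure D4:**
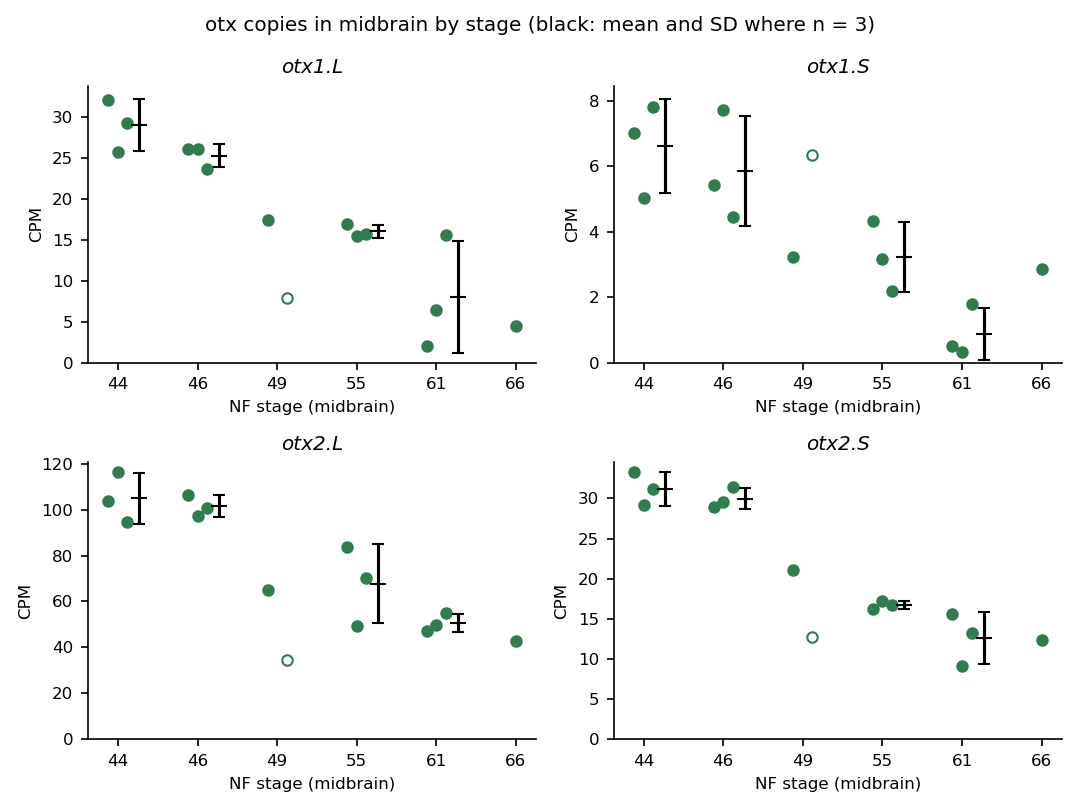
Level of each otx copy in CPM in each midbrain library by NF stage (equally spaced), with the mean and SD in black where 3 libraries exist. The open point is NF 49 replicate 2, a library with many counts on silent genes. NF 61 of *otx1.L* spans 2.06 to 15.5 CPM, while *otx2.L* spans 46.9 to 55.0 CPM.

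The share of *otx2* in all otx counts in midbrain was 77.8%, 82.6% and 77.2% at NF 44, 81.2%, 78.9% and 82.5% at NF 46, 82.4%, 78.1% and 82.9% at NF 55 and 96.0%, 89.7% and 79.7% at NF 61. Replicates 1 and 2 of NF 61 were above all other libraries of these stages and replicate 3 was among them. The exact permutation test over the 12 libraries gave p = 0.109 (adjusted p = 0.328), and without NF 61 replicate 3 the adjusted p was 0.0321. That adjustment kept the other share tests on all their libraries, and the adjusted value depends on them too. The .L shares did not pass either, with exact permutation p values of p = 0.331 for *otx1* (adjusted p = 0.496) and p = 0.637 for *otx2* (adjusted p = 0.764).

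At NF 66, after metamorphosis, the 1 library had 4.49 CPM of *otx1.L* (25 counts, exact Poisson 95% interval 2.90 to 6.63 CPM, for counting error only), 2.87 CPM of *otx1.S* (interval 1.64 to 4.66 CPM), 42.5 CPM of *otx2.L* (interval 37.3 to 48.3 CPM) and 12.4 CPM of *otx2.S* (interval 9.64 to 15.7 CPM). There is no replicate and no test. *otx1.L* and *otx2.S* lay within the ranges of NF 61, *otx1.S* above its range of 0.331 to 1.79 CPM and *otx2.L* below its range of 46.9 to 55.0 CPM. The .L share of *otx1* was 61.0% there (exact interval 44.5% to 75.8%), the lowest of any midbrain library with few counts on silent genes.

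Markers of other tissues also moved over these stages. The pineal rows summed to 44.1 to 95.01 CPM at NF 44, 64.1 to 88.8 CPM at NF 46, 38.7 to 42.8 CPM at NF 55 and 20.8 to 22.4 CPM at NF 61, and the retina and photoreceptor rows to 22.7 to 60.04, 27.9 to 50.9, 19.4 to 29.5 and 4.0 to 5.6 CPM. At NF 61 only 2 to 6 of the 11 retina rows were detected, and *crx.L*, a photoreceptor relative of otx, was called lower than at NF 44 by 5.5 on the log2 scale. The rows of the retinal pigment epithelium summed to 147 to 198 CPM at NF 44 and to 37.7 to 48.7 CPM at NF 61. The choroid plexus rows summed to 51.5 to 59.4 CPM at NF 44 and to 129 to 236 CPM at NF 61, but this rested on 1 row, *aqp1.L*, at 20.4 to 39.6 CPM and 104.7 to 214 CPM, and the other 11 rows summed to 19.7 to 31.1 CPM and 21.7 to 30.8 CPM. NF 61 replicate 3, with its higher *otx1*, had 4.0 CPM of the retina and 22.4 CPM of the pineal rows, beside 5.0 and 5.6 CPM and 21.0 and 20.8 CPM in replicates 1 and 2. Whether a changing content of such cells had a part in the fall of otx was not tested.

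Of the 51 listed partners 44 were tested in midbrain. Between NF 44 and 61, 9 were called and all were lower at NF 61, and between NF 46 and 61 the number was 10, again all lower. Over all genes 7.91% and 7.83% were called in these comparisons, with 1270 of 2111 and 1307 of 2090 lower. From NF 44 to 55 there were 2 partners lower, from NF 55 to 61 there were 4 lower, and none was called from NF 46 to 55 or from NF 44 to 46. Of all genes called from NF 55 to 61 (3.33%), 795 of 889 were lower too, and from NF 44 to 55 (2.61%) 195 of 696 were. The median log2 fold change from NF 44 to 61 was -1.03 over the list and 0.0034 over all genes tested. *wnt1.L*, the ligand of the boundary region, and *lmx1b.2.L*, a LIM homeobox gene of the same region, were lower by 3.7 and 3.0 at NF 61 than at NF 44. *rax.L*, an eye-field homeobox gene, was lower by 2.1. Partners that did not follow otx included *en2.S*, with means of 22.4 CPM at NF 44 and 38.8 CPM at NF 61, and *gbx2.2.L*, with 8.5 and 17.04 CPM, neither of which was called. *gbx2.1.L* had 13.4 and 14.8 CPM and was not called either.

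At NF 49 *otx2.L* was again highest in midbrain, and the order of the other regions was not resolved, as hindbrain overlapped with both forebrain and spinal cord. It measured 65.1 and 34.5 CPM in midbrain, 14.4 and 9.41 CPM in forebrain, 4.54 and 9.62 CPM in hindbrain and 6.66 and 5.58 CPM in spinal cord. Of 24 tests over 35609 genes, 1 was called, *otx2.L* in spinal cord against midbrain, at -2.86 (standard error 0.45, edgeR adjusted p = 0.036), where 0.416% of all genes were called. Hindbrain against midbrain gave -2.70 (standard error 0.44, adjusted p = 0.116), with 0.0505% of genes called, and midbrain against forebrain 1.99 (standard error 0.42, adjusted p = 0.202), with 0.146% called. In the other pairs no copy was called, against 0.126% of genes for forebrain and hindbrain, 0.455% for forebrain and spinal cord and 0.0112% for hindbrain and spinal cord.

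This call depended on how the 8 libraries were fitted. It was lost when only midbrain and spinal cord were fitted (0 of 24 calls) and without either replicate of forebrain, hindbrain or spinal cord. Without midbrain replicate 2, 3 tests were called (*otx2.L* in midbrain against each other region, at sizes of 2.39 to 3.26). The midbrain then had 1 library, assumed to vary like the other groups, and the share of all genes called was 31.2% against forebrain, 31.5% against hindbrain and 34.7% against spinal cord. Without midbrain replicate 1, again with 1 library left, *otx2.L* was called against hindbrain (-2.19, where 0.183% of genes were called) and spinal cord (-2.36, where 0.552% were). DESeq2 on all 8 libraries called *otx2.L* in midbrain against each other region. It called 0.505% of 25943 genes against forebrain, 0.265% of 29395 against hindbrain and 2.41% of 12136 against spinal cord. These bases are the genes to which DESeq2 gave an adjusted p, fewer than the 35609 tested by edgeR. Of the 8 libraries, 7 were among those with many counts on silent genes.

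No other copy was called between the NF 49 regions. *otx2.S* measured 21.1 and 12.7 CPM in midbrain, 10.4 and 8.26 CPM in forebrain, 6.17 and 8.49 CPM in hindbrain and 9.09 and 5.79 CPM in spinal cord, with midbrain above every other library (unadjusted p = 0.0248 against hindbrain and 0.0331 against spinal cord in edgeR, adjusted p = 0.534 and 0.276). *otx1.L* measured 17.4 and 7.89 CPM in midbrain, 10.6 and 6.65 CPM in forebrain, 5.52 and 5.38 CPM in hindbrain and 9.39 and 5.15 CPM in spinal cord, and midbrain overlapped with forebrain and spinal cord. *otx1.S* was between 3.22 and 6.97 CPM in all 8 libraries, lowest in midbrain replicate 1, the library with few counts on silent genes. In the hindbrain and spinal cord of NF 49, the 16 values of the 4 copies lay between 4.25 and 9.62 CPM, beside a level of 5.15 to 7.27 CPM that 99% of the silent genes did not exceed in those 4 libraries.

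From NF 46 to 49 within a region, no copy was called in 16 tests over 42559 genes. At an unadjusted p below 0.05 there were 3, and DESeq2 called 2, both in spinal cord (*otx1.L* at 2.71 and *otx2.L* at 2.48). There it called 3.5% of the 25949 genes to which it gave an adjusted p. Over all genes the median log2 fold change from NF 46 to 49 was 0.52 in forebrain, 0.72 in midbrain, 0.49 in hindbrain and 0.42 in spinal cord, so the values of otx are read against these shifts. *otx2.L* gave -1.27 in forebrain (standard error 0.45, adjusted p = 0.167), -0.84 in midbrain (standard error 0.41, adjusted p = 0.182) and -0.09 in hindbrain (adjusted p = 0.90), against 0.15%, 0.2% and 0.313% of genes called. In spinal cord *otx2.L* rose by 1.95 (standard error 0.55, adjusted p = 0.0209), past the adjusted p and short of the fold, where 14.6% of genes passed the adjusted p and 2.54% were called. This rise no longer passed without replicate 1 or 2 of NF 46 spinal cord (1.74 and 1.48) or without replicate 1 or 2 of NF 49 spinal cord (1.92 and 2.096).

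The changes from NF 46 to 49 were compared between every pair of regions for each copy by interaction tests of edgeR. Only 2 of these tests were called. The change of *otx2.L* in spinal cord exceeded that in forebrain by 3.22 (standard error 0.71, adjusted p = 0.0354), where 0.613% of all genes were called. It exceeded that in midbrain by 2.79 (standard error 0.69, adjusted p = 0.047), with 1.1% called. Against hindbrain the difference was 2.04 (adjusted p = 0.517). Both calls depended on the fit. The first was lost in 13 of 31 alternatives (adjusted p up to 0.294), among them leaving out each of 12 single libraries, and the second in 18 of 31 (adjusted p up to 0.34), so that it passed without 1 library only where that was replicate 3 of forebrain or spinal cord or replicate 2 or 3 of hindbrain at NF 46. Over all genes the medians of these 2 differences were -0.10 and -0.86. The libraries of spinal cord at NF 49 had 1.87% and 0.939% of counts on silent genes, against 0.076%, 0.102% and 0.541% at NF 46, and the midbrain had 0.0635% and 0.904% against at most 0.0044%. The NF 46 midbrain shares are low by the definition of the silent genes. The part of this background in the rise was not tested.

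Without the 3 libraries of NF 46, 6 of the 16 tests were called, all upward in hindbrain or spinal cord. In hindbrain these were both .S copies, where 32.6% of all 43323 genes were called. The remaining NF 46 hindbrain libraries held 0 counts of *otx1.S* and 2 of *otx2.S*, so that NF 49 hindbrain was at least 21.6-fold higher for *otx1.S* (against 3 counts over both libraries) and 50.4-fold higher for *otx2.S* (exact Poisson 95% interval of the 2 counts 13.9 to 416). In spinal cord all 4 copies were called, where 29.3% of genes were called, with *otx2.L* at 2.84, *otx1.S* at 3.59 and *otx1.L* at 4.49, and *otx2.S*, with 2 counts at NF 46, was 48.9-fold higher (interval 13.5 to 404). For the .L copies in hindbrain the values were 0.22 (*otx1.L*) and -0.30 (*otx2.L*), with adjusted p values of 0.724 and 0.521. *otx2.L* fell past the adjusted p of edgeR, short of the fold, in forebrain (-1.48, adjusted p = 0.00221) and midbrain (-1.02, adjusted p = 0.0106). The share of all genes past the adjusted p in this fit is not given here. All NF 49 libraries but midbrain replicate 1 had many counts on silent genes, and the remaining NF 46 ones had few. Stage and this background therefore cannot be told apart in these values. *otx1.S* in NF 49 hindbrain was at 5.19 and 4.25 CPM. In those libraries 99% of the silent genes stayed at or under 5.52 and 6.51 CPM.

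The copies were also compared by the pattern of their group means. Over the 12 groups, Pearson's r of mean log2 CPM was 0.86 between *otx2.L* and *otx2.S*, 0.84 between *otx1.L* and *otx2.L*, 0.85 between *otx1.L* and *otx2.S*, 0.64 between *otx1.L* and *otx1.S*, 0.70 between *otx1.S* and *otx2.S* and 0.35 between *otx1.S* and *otx2.L*. These points share libraries and depth and differ in background, and the values are a description. *otx1.S* was thus the copy least like the others, and it was also the copy with the lowest counts.

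Among 34125 genes with a mean of at least 1 CPM, those most like each copy were listed by the same measure. For *otx2.L* they included *mc5r.L*, a melanocortin receptor (r = 0.99), *barhl2.L* (0.98), *sp5.L*, a target of Wnt signaling (0.96), and *barhl2.S* (0.96). For *otx2.S* they were *LOC108697317* (0.98), *nr2e1.L*, an orphan nuclear receptor of neural progenitors (0.97), *six6.L* (0.96), *vax1.L*, a ventral anterior homeobox gene (0.96), and *LOC108697000* (0.96).

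The genes most like the *otx1* copies had lower values. For *otx1.L* they were *unc119b.L* (0.94), *htr2a.L*, a serotonin receptor (0.93), *nr2e1.S* (0.93), *LOC108706849* (0.92) and *vax1.S* (0.91). For *otx1.S* they were *c2cd4d.S* (0.93), *rax.L* (0.92), *LOC100491437-like.L* (0.92), *hdc.L*, histidine decarboxylase (0.90), and *sim2.L*, a bHLH-PAS transcription factor (0.90). In NF 46 hindbrain each of these genes was highest in replicate 3, the library with many counts on silent genes, as *otx1.S* was. There *c2cd4d.S* measured 0, 0 and 5.91 CPM and *hdc.L* 1.06, 0.124 and 7.56 CPM in replicates 1 to 3. The part of background in this likeness was not tested. Copies of *nr2e1* and *vax1* were on the lists of both *otx1.L* and *otx2.S*.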

How the data were processed

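The authors aligned single-end reads from amplified total RNA to the *X. laevis* genome of Xenbase with STAR 2.5.2a and counted them per gene with HTSeq 0.11.1, per the submitters' notes and the paper's methods, and deposited raw counts for 49109 genes and 30 libraries. Handling of multi-mapping reads and strand is not given in the sources used here. The other deposited tables, counts divided by DESeq2 size factors by the authors, were not used here.

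The counts were filtered by edgeR (version 4.0.16, R 4.3.3; minimum count 10, minimum total 15) and scaled by TMM. edgeR's quasi-likelihood F test with robust dispersions was run on pairs of groups in 4 fits (12 libraries of NF 46, 12 of midbrain stages 44, 46, 55 and 61, 8 of NF 49, and 20 of NF 46 and 49), with Benjamini-Hochberg adjustment over all genes tested in a pair. The standard error of a log2 fold change is its size over the root of its F statistic. With 3 libraries against 3, an exact test of 1 gene cannot give a p below 0.1. A lack of overlap between groups is therefore a description only, and its share over all genes is not given here. Shares were tested by exact permutation over libraries with at least 20 counts, enumerating all regroupings (the test is two-sided by construction), and intervals are Clopper-Pearson or exact Poisson at 95%. Named genes were the 4 copies, the 5 genes most like each by Pearson's r over group means of log2 CPM (prior count 2), and listed partners that were called or act beside otx in patterning. Gene IDs are from RefSeq (Xenopus_laevis_v10.1), and all 4 symbols matched. Some listed or similar genes are not reported here.

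The copies, the lists and the tests were chosen with earlier results of these data known. Alternatives were DESeq2 1.42.0 with and without the filter, RLE scaling, no filter, only the groups compared, all libraries in 1 fit and a replicate block. Others were a log2 fold change threshold of 1, the adjusted p alone and thinning to 1762544 counts. For shares they were a minimum of 50 counts and log odds. Single libraries, or the 3 NF 46 libraries with many counts on silent genes, were also left out. Fits without scaling, fits with the silent-gene share as a covariate and share tests without the 3 libraries were added after seeing the data. The edgeR and permutation steps were tested on simulated data. Lists for skeletal muscle, red blood cells and cerebellar granule cells were summed as well, and at NF 46 they were at 11.9 to 434, 353 to 2239 and 97.2 to 554 CPM per library.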

Additional observations from a re-analysis of the deposited data

Results flagged for a closer look

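The change of *otx2.L* from NF 46 to 49 differed between regions by the interaction test of edgeR, by 3.22 between spinal cord and forebrain (adjusted p = 0.0354) and by 2.79 between spinal cord and midbrain (adjusted p = 0.047). No other interaction test was called for any copy or pair of regions. Under the alternatives run, the first difference stayed between 2.75 and 4.32 and passed in 18 of 31, and the second stayed between 2.32 and 3.87 and passed in 13 of 31. *otx2.L* was 1.25, 0.445 and 3.14 CPM in NF 46 spinal cord and 6.66 and 5.58 CPM in that of NF 49. In those NF 49 libraries, which had many counts on silent genes, 99% of the silent genes stayed at or under 7.27 and 5.15 CPM. The part of this background in the difference was not tested.

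The NF 66 midbrain library lies outside the tests, and each copy was above the limit of 0.539 CPM that a count of 0 allows there. The values were 4.49 CPM for *otx1.L*, 2.87 CPM for *otx1.S*, 42.5 CPM for *otx2.L* and 12.4 CPM for *otx2.S*.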

How the results depend on the processing

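The 24 differences of single copies past the adjusted p in the main fits were each looked up in the alternative fits. Of the 541 values found, 477 still passed, 64 did not, and 0 reversed. Many of these values come from the same fit, and some fits left out a library of a group outside the pair. The 24 were taken because they had passed, so the values are not independent checks. For NF 46 regions (5 calls), the count was 11 with all libraries in 1 fit, 15 without the 3 libraries, 13 with the silent-gene share as covariate and 4 to 11 without single libraries. For midbrain stages (2 calls), it was 8 at a log2 fold change threshold of 1 and 13 by adjusted p alone. It was 0 with all libraries in 1 fit, 1 after thinning and 2 to 5 without single libraries. For NF 49 regions (1 call), it was 3 with DESeq2 with and without the filter, 2 with edgeR without the filter, 0 with only the groups compared, 3 with all libraries in 1 fit and 0 to 3 without single libraries. From NF 46 to 49 (0 calls), it was 1 at a log2 fold change threshold of 1, by adjusted p alone, with RLE scaling or without scaling. It was also 1 without the filter, after thinning or with the covariate. The count was 2 with DESeq2 with and without the filter and with all libraries in 1 fit. It was 6 without the 3 libraries and 0 to 3 without single libraries. The share of all genes called is given above for some of these settings and is not given for the others. These counts are therefore not read as particular to otx. The cause of the shifts in these counts was not tested.

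With the replicate block the calls were 6 for NF 46 regions, 2 for stages, 0 for NF 49 regions and 5 from NF 46 to 49. It added *otx2.S* in midbrain against spinal cord at NF 46 (-4.81, adjusted p = 0.0281) and the .S copies in hindbrain and all but *otx2.L* in spinal cord from NF 46 to 49. In spinal cord the edgeR p of *otx1.L*, 0.0118, was adjusted only to 0.026, so a large part of all genes had small p values. The share of all genes called with the block is not given here, and these calls are not read as particular to otx. Deviations of libraries with the same number correlated by -0.06 to 0.04 between stages. At NF 46 they correlated by 0.43 to 0.85 among forebrain, hindbrain and spinal cord and by -0.02 to 0.03 with midbrain, so the numbers were not taken as pairs. A library correlated best with its own number in 13 of 18 cases among forebrain, hindbrain and spinal cord, in 7 of 18 with midbrain and in 6 of 36 between stages.

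Without single libraries, the adjusted exact permutation p of the *otx2* share of otx counts ran from 0.0321 to 0.644 between stages and from 0.0429 to 0.328 between NF 46 regions, and that of the .L share of *otx2* between NF 46 regions from 0.0214 to 0.723, with 0.0321 without the 3 libraries. In each case only the test named was rerun, and the other share tests kept all their libraries in the adjustment. At NF 46 the .S copies had 0 to 6 counts in replicates 1 and 2 of hindbrain and spinal cord, so their levels there are known only within wide counting intervals.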
